A study of Mus musculus with 70 samples.

Results

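The molecular clock of the mouse pituitary was examined through 10 genes of its core loop and its output arm, *Clock*, *Arntl*, *Per1*, *Per2*, *Per3*, *Cry1*, *Cry2*, *Dbp*, *Tef* and *Nfil3*, chosen by name from 22835 genes in the RNA-seq table, with the transcript of highest mean level standing for each gene. All 10 were above 1 CPM (reads on a transcript scaled to a common library total, not divided by length) in each of the 18 libraries, as were 13145 genes in all, which formed the tested set. The question was whether triiodothyronine (T3), the active thyroid hormone, changes these genes in the pituitary, and whether the change needs the receptor TRβ, encoded by *Thrb*.

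The RNA came from adult male C57BL/6J mice aged 2 to 4 months, either wild type (WT) or carrying a germline deletion of *Thrb* (Thrb-KO). All mice, both genotypes and both hormone states, were given drinking water with perchlorate (KClO4, 1%), which blocks iodide uptake, and methimazole (MMI, 0.05%), which blocks hormone synthesis, for 4 to 5 weeks; hypothyroid mice received nothing else, and hyperthyroid mice also received T3 at 0.5 µg/ml in the final 1 week. There were 4 hypothyroid WT, 4 hyperthyroid WT, 5 hypothyroid Thrb-KO and 5 hyperthyroid Thrb-KO libraries, each from a pool of 3 pituitaries, and no RNA group with normal thyroid status. Because the deletion is in every cell of the animal, a difference between genotypes is not particular to pituitary cells. Tissue was taken between 14 and 18 h under a 12 h light cycle, and the hour for each library is not given in the sources used here, so a difference in the hour of collection between groups was not tested.

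The clock is a transcriptional loop. CLOCK and ARNTL (BMAL1) bind E-boxes and drive *Per* and *Cry* genes, whose proteins return to the nucleus and repress that pair. A second layer is formed by the Rev-erb and Ror nuclear receptors, which act on *Arntl*. The same E-box drive turns on *Dbp*, which with *Tef* and *Hlf* belongs to the PAR bZIP family of activators, while NFIL3 (E4BP4) represses through the same D-box element that these activators bind. In the pituitary, as in other peripheral tissues, these genes cycle over the day, and hormones including glucocorticoids can shift them. Since each sample mixes all cell types of the gland, fewer cells of a type and less RNA per cell cannot be told apart.

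DNA elements at 3 of these genes carry the comparisons with chromatin below. Sites bound by TRβ in untreated pituitary had been mapped with a biotin-tagged receptor (TRβ-HAB), and the following stretches of mm9 are shown because each is such a peak that holds a recognisable element. The first, in the intron of *Nfil3* at chr13:53070751-53071000 on the plus strand, holds a pair of AGGTCA-like hexamers (capitals) in direct repeat with 4 bases between them, the layout that thyroid hormone receptors favour; 10 of the 12 hexamer bases match. The second lies just upstream of *Per3* at chr4:150418901-150419200, printed on the minus strand on which the gene is read, and holds 2 copies of the D-box TTATGTAA (capitals), the element through which DBP, TEF and NFIL3 act. The third lies at *Per1* at chr11:68912201-68912449 on the plus strand, before an exon, and holds an E-box CACGTG (capitals), the element of CLOCK and ARNTL.
Nfil3 intronic peak: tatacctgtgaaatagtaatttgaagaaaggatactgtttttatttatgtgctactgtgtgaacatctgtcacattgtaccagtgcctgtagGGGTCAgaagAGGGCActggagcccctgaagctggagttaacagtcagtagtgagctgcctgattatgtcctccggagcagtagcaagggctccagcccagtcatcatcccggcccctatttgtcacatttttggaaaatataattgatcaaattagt
Per3 upstream peak: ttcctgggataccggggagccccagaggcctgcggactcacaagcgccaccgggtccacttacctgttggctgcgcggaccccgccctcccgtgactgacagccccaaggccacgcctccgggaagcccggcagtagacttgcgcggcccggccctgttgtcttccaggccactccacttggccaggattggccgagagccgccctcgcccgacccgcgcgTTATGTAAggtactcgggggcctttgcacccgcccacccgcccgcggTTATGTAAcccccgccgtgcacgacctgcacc
Per1 peak: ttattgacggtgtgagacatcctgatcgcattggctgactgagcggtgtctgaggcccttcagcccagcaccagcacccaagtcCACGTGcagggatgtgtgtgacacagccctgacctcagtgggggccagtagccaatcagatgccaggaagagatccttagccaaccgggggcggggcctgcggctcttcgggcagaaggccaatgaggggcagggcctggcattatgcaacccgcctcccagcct

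The libraries held between 21453548 and 55273749 reads on the table's transcripts, with a median of 34673225. They fell into sets by replicate number: the 8 libraries numbered 1 and 2 held 2571 to 3420 CPM of *Lars2* and the 10 libraries numbered 3 to 5 held 53.2 to 95.1 CPM, in every group alike, so, for the clock genes and the named pathway genes, calls lost or gained in one set alone are given below. The 11 hormone-cell genes checked were all well expressed, with summed levels of 69814 to 98480 CPM in hypothyroid WT and 107669 to 224458 CPM in hyperthyroid WT, the top value being that of hyperthyroid WT replicate 3. *Thrb* transcripts were not lower in Thrb-KO (256.7 CPM in hypothyroid WT and 270.8 CPM in hypothyroid Thrb-KO), so they do not check the genotype labels. In WT, *Thrb* itself fell by 1.32 on the log2 scale with T3 (limma, adjusted p = 1.3e-06), whereas the Thrb-KO difference was -0.06 (limma, adjusted p = 1.0). Throughout, a gene was called changed at a Benjamini-Hochberg adjusted p below 0.05 with a fold of at least 1.5 in either direction, fold changes are on the log2(CPM + 1) scale, and errors of group means are SDs. Counts at an unadjusted p below 0.05 are given without a share over all genes, which was not computed.

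In WT pituitary, T3 raised *Dbp* and lowered *Nfil3*, the activator and the repressor of D-box genes, while the other 8 clock genes were not called. In Thrb-KO pituitary *Dbp* rose by a like amount and *Nfil3* was not called. *Nfil3* was already low in hypothyroid Thrb-KO mice, at about the level that T3 produced in WT. Of the 10 genes, 2 were called in WT against 9.46% of all genes tested, 1 higher against 3.87% and 1 lower against 5.59%. In Thrb-KO, 1 was called, and it was higher, where 1.01% of genes were called in either direction and 0.411% higher. The median of the 10 differences was -0.18 in WT and -0.03 in Thrb-KO, against -0.04 and -0.01 over all genes. Of all WT calls 40.92% were higher, and this split depended on scaling, being 55.56% after composition (TMM) scaling of the CPM, 50.21% with edgeR and 52.54% with DESeq2.

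**Figure D1:**
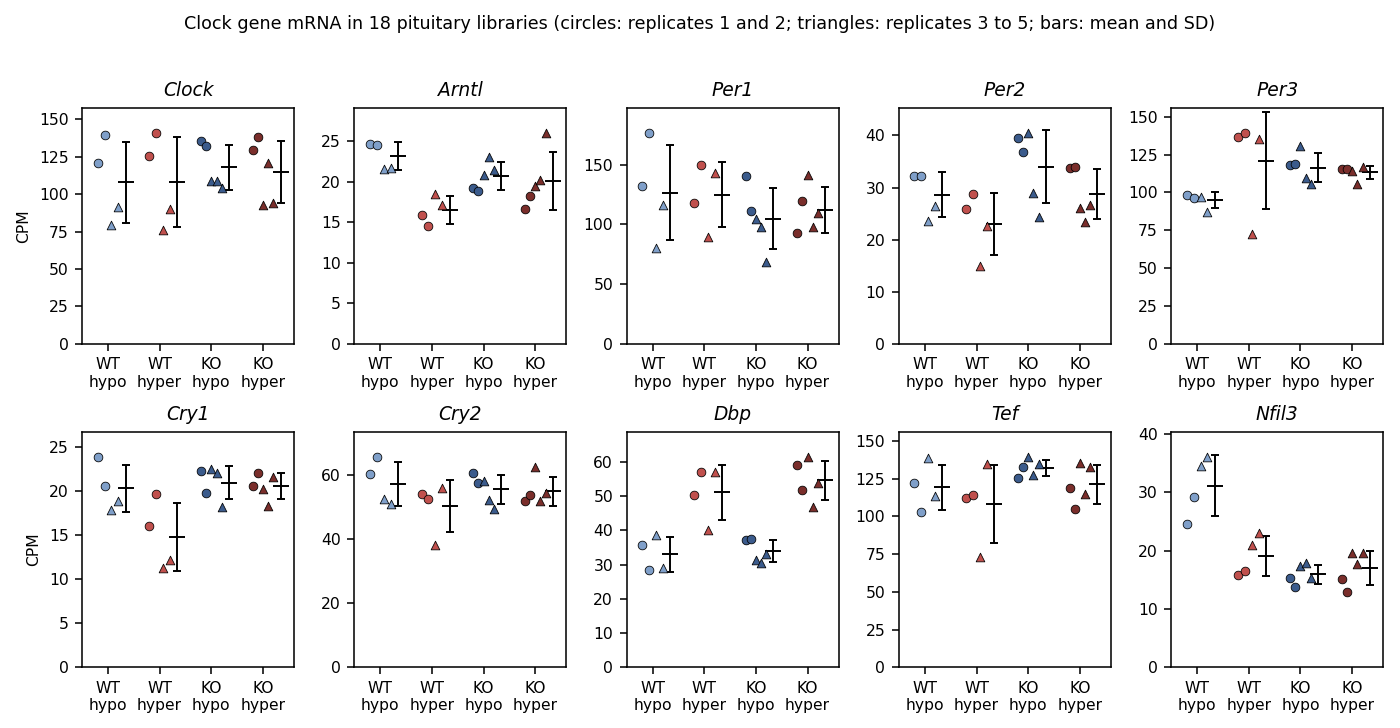
Level of each of the 10 clock genes in every library, in CPM, with circles for replicates 1 and 2, triangles for replicates 3 to 5, bars for the group mean ± SD, and the groups hypothyroid WT (n = 4), hyperthyroid WT (n = 4), hypothyroid Thrb-KO (n = 5) and hyperthyroid Thrb-KO (n = 5). *Dbp* moves from means of 33.0 to 51.2 CPM in WT and from 33.9 to 54.6 CPM in Thrb-KO, and *Nfil3* is high in hypothyroid WT alone, at a mean of 31.1 CPM.

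*Dbp*, a PAR bZIP activator whose rhythm is among the strongest known in peripheral tissue, was at 35.7, 28.4, 38.7 and 29.1 CPM in the 4 hypothyroid WT libraries and at 50.4, 57.2, 40.1 and 57.0 CPM in the 4 hyperthyroid WT libraries. In Thrb-KO the 5 hypothyroid libraries were at 37.2, 37.4, 31.4, 30.4 and 33.2 CPM and the 5 hyperthyroid libraries at 59.0, 51.7, 61.5, 47.0 and 54.0 CPM. In both genotypes every hyperthyroid library was above every hypothyroid one, with the narrowest gap in WT, between replicate 3 of each group. The rise was 0.62 in WT (SE 0.126, 95% interval 0.35 to 0.88, 1.53-fold, limma adjusted p = 0.0015). In Thrb-KO it was 0.67 (SE 0.113, interval 0.43 to 0.91, 1.59-fold, limma adjusted p = 0.0017). The responses of the 2 genotypes were not told apart, with a difference (WT minus Thrb-KO) of -0.05 and an interval of -0.41 to 0.30 (limma adjusted p = 0.98). Nor did the genotypes differ detectably before T3, by 0.05 with limma adjusted p = 0.89. The WT value lay close to the fold limit, and the call was lost when any of hypothyroid replicates 2 and 4 or hyperthyroid replicates 2 and 4 was left out (0.55 to 0.56), with adjusted p from 0.0063 to 0.0074 by limma. Within library sets the rise was 0.74 and 0.50 in WT, the latter in replicates 3 to 5 with limma adjusted p = 0.083, and 0.55 and 0.75 in Thrb-KO, the former in replicates 1 and 2, where it was short of 1.5-fold. The gene shares 689 bp with *Sphk2* on the opposite strand, and whether reads were counted by strand is not stated; *Sphk2* differed by 0.16 in WT (limma adjusted p = 0.31) and 0.41 in Thrb-KO (limma adjusted p = 0.016), neither called. Markers of other cells moved in part in WT. The 2 blood genes summed to 24.7 to 46.3 CPM without T3 and 56.1 to 62.9 CPM with it. The 4 pituicyte and neural genes summed to 33.4 to 44.9 and 43.0 to 55.4 CPM, which overlapped. *Col1a1* alone was called among the 4 vascular and stromal genes, whose sums overlapped (181 to 208 and 154 to 222 CPM). The stem and folliculostellate sums (183 to 246 and 224 to 288 CPM) and immune sums (10.4 to 12.5 and 9.0 to 13.9 CPM) overlapped too. In Thrb-KO the blood sums were 20.4 to 50.9 and 21.3 to 67.0 CPM. The pituicyte and neural sums there were 42.0 to 55.9 and 51.0 to 53.1 CPM. No gene of these lists was under 1 CPM in every library, and their part in the WT responses was not tested.

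*Nfil3*, the bZIP repressor of D-box genes, which also has roles in lymphocytes, was at 24.6, 29.2, 34.5 and 36.1 CPM in hypothyroid WT and at 15.8, 16.6, 21.0 and 23.0 CPM in hyperthyroid WT. The hypothyroid Thrb-KO libraries were at 15.3, 13.8, 17.3, 17.9 and 15.3 CPM and the hyperthyroid ones at 15.2, 12.9, 19.6, 17.6 and 19.6 CPM. Hypothyroid WT thus stood alone, above every library of the other groups, and the Thrb-KO groups overlapped each other. T3 lowered *Nfil3* in WT by a log2 difference of -0.68 (SE 0.149, interval -0.99 to -0.36, limma adjusted p = 0.0028), a level 0.626 times the hypothyroid one. That call was lost in 1 of 30 alternative fits, after TMM scaling, at -0.58 and so short of 1.5-fold. In Thrb-KO the difference was 0.08 (interval -0.20 to 0.36, limma adjusted p = 1.0). The responses differed by -0.75 (SE 0.201, interval -1.17 to -0.33, limma adjusted p = 0.033), the only call for a difference in response among the 10 genes, where 4.26% of all genes were called and 2.48% in this direction. This call was near its limit in the reported fit. It was lost with edgeR (-0.74, adjusted p = 0.053), after TMM scaling (-0.68, limma adjusted p = 0.066) and in 10 of 18 fits without 1 library. DESeq2 kept it (-0.73, adjusted p = 0.022), and so did each library set alone, at -0.64 and -0.82. With the library set or the replicate number as a block it was kept at -0.75 (limma adjusted p = 0.00011 and 0.00061).

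Between genotypes in the hypothyroid state, *Nfil3* was lower in Thrb-KO by a log2 difference of -0.91 (SE 0.142, interval -1.21 to -0.61, limma adjusted p = 0.0004), to 0.531 times the WT level. It was the single clock gene called there, where 3.02% of all genes were called and 2.01% lower, and its call held in all 30 alternative fits, between -1.03 and -0.84. In the hyperthyroid state the genotypes were at 19.1 ± 3.48 CPM (n = 4) and 16.98 ± 2.91 CPM (n = 5), a difference of -0.16 with limma adjusted p = 0.52. None of the marker lists for other cell types had a called gene between the hypothyroid genotypes. The 2 immune genes summed to 10.4 to 12.5 CPM in hypothyroid WT and 7.18 to 9.36 CPM in hypothyroid Thrb-KO, and their part in the *Nfil3* difference was not tested.

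*Tef*, the PAR bZIP relative of *Dbp* first named thyrotroph embryonic factor, did not move with it. Its means were 119 ± 15.0 CPM in hypothyroid WT and 109 ± 25.8 CPM in hyperthyroid WT (n = 4 each), and 132 ± 5.58 and 121 ± 12.9 CPM in the Thrb-KO groups (n = 5 each). The differences were -0.16 in WT (interval -0.46 to 0.14, limma adjusted p = 0.54) and -0.12 in Thrb-KO (limma adjusted p = 1.0). The third PAR bZIP gene, *Hlf*, was not called either, at -0.31 in WT and -0.30 in Thrb-KO (limma adjusted p = 0.091 and 0.3). *Hlf* was above WT in Thrb-KO in both hormone states, by 0.46 and 0.48 (limma adjusted p = 0.018 and 0.0095), which is short of 1.5-fold, though the hypothyroid difference was called in replicates 1 and 2 alone (0.60).

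**Figure D2:**
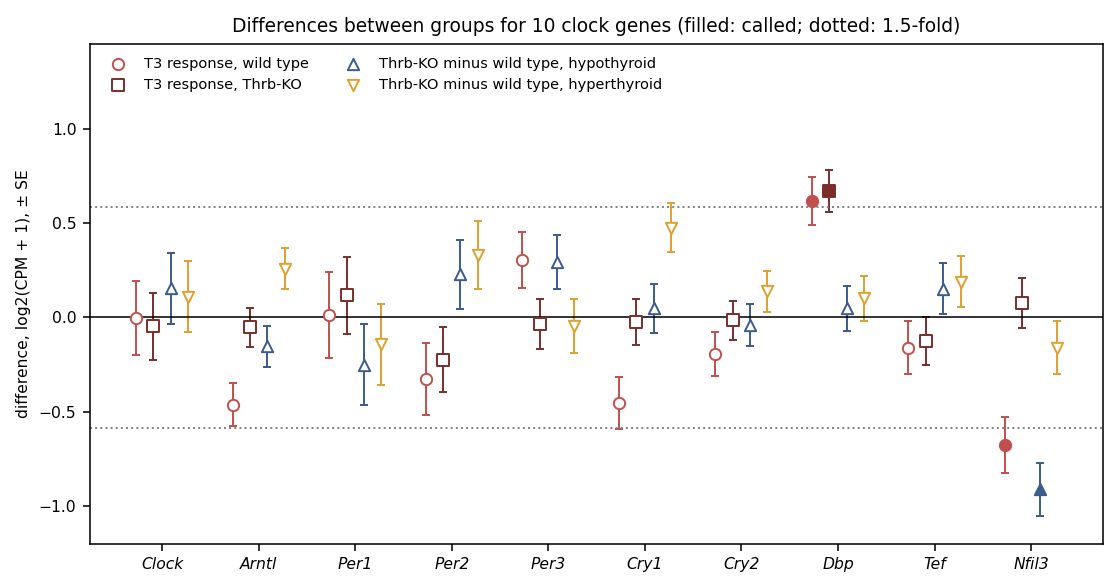
Log2(CPM + 1) differences ± SE (limma) of the 10 clock genes for T3 in WT, T3 in Thrb-KO, and Thrb-KO minus WT in each hormone state, with filled symbols for called differences and dotted lines at 1.5-fold. *Dbp* is at 0.62 and 0.67 in the responses to T3, and *Nfil3* at -0.68 in WT, 0.08 in Thrb-KO and -0.91 between the hypothyroid genotypes.

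The activating pair gave one gene with a small shift and one with none detected. *Arntl*, the partner of CLOCK, was at 24.7, 24.5, 21.6 and 21.7 CPM in hypothyroid WT and at 15.9, 14.5, 18.5 and 17.1 CPM in hyperthyroid WT, so the groups did not overlap. In Thrb-KO the hypothyroid libraries were at 19.3, 18.8, 20.8, 23.0 and 21.5 CPM and the hyperthyroid ones at 16.6, 18.3, 19.4, 20.2 and 26.0 CPM, which overlapped widely. The WT difference was -0.46 (SE 0.115, interval -0.70 to -0.22, limma adjusted p = 0.0069), or 0.725 times, past the p limit and short of the fold limit. In Thrb-KO it was -0.05 (limma adjusted p = 1.0), and the difference between the responses, -0.41, did not pass (limma adjusted p = 0.16). In WT the shift was -0.66 within replicates 1 and 2, where it was called, and -0.27 within replicates 3 to 5 (limma adjusted p = 0.23).

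*Clock* means were 108 ± 27.3, 108 ± 30.0, 118 ± 14.9 and 115 ± 20.7 CPM in hypothyroid WT, hyperthyroid WT, hypothyroid Thrb-KO and hyperthyroid Thrb-KO (n = 4, 4, 5 and 5). The T3 difference was -0.004 in WT with an interval of -0.42 to 0.41, which still leaves room for changes of up to that size in either direction. Its spread followed the library sets and not the groups, with 121 to 141 CPM in replicates 1 and 2 and 76.3 to 121 CPM in replicates 3 to 5. With the library set as a block the WT difference was again -0.004, with an SE of 0.097 against 0.198 in the reported fit.

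Among the repressors, *Cry1* was the gene that passed the p limit in WT. It was at 23.9, 20.6, 17.8 and 18.9 CPM in hypothyroid WT and at 16.1, 19.7, 11.4 and 12.2 CPM in hyperthyroid WT, with replicate 2 of the latter inside the hypothyroid range. The Thrb-KO libraries ran from 18.2 to 22.6 CPM without T3 and from 18.4 to 22.1 CPM with it. The *Cry1* difference was -0.45 in WT (SE 0.137, interval -0.74 to -0.17, limma adjusted p = 0.025), or 0.731 times, and -0.03 in Thrb-KO (limma adjusted p = 1.0), and the difference between the responses of -0.43 did not pass (limma adjusted p = 0.25). With T3 the level in Thrb-KO was 1.39 times that in WT, a log2 difference of 0.48 (interval 0.20 to 0.75, limma adjusted p = 0.02). Whether that WT shift passed depended on the library left out. Without hyperthyroid replicate 3 it was -0.34 (limma adjusted p = 0.068). It also missed the p limit without hyperthyroid replicate 4, hypothyroid replicate 1 or hypothyroid replicate 2 (limma adjusted p = 0.082, 0.091 and 0.052). Without hyperthyroid replicate 2 it was -0.59 and called. With the library set as a block and all libraries kept it was -0.45 (limma adjusted p = 0.0036), short of 1.5-fold. Within replicates 3 to 5 both *Cry1* differences were called, at -0.60 in WT and 0.72 between hyperthyroid genotypes, and within replicates 1 and 2 they were -0.31 and 0.25. Together with *Dbp*, *Nfil3* and *Arntl*, 4 of the 10 genes were below an adjusted p of 0.05 in WT at any fold, against 19.3% of all genes. Between hyperthyroid genotypes none of the 10 was called, by limma, edgeR or DESeq2, where 4.86% of all genes were called; *Arntl* and *Cry1* were the 2 with an unadjusted p below 0.05, and *Cry1* the 1 below an adjusted p of 0.05, against 12.1% of all genes.

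*Cry2*, its close relative, was at 57.2 ± 6.88 and 50.1 ± 8.14 CPM in hypothyroid and hyperthyroid WT (n = 4 each), a difference of -0.19 with an interval of -0.44 to 0.05 (limma adjusted p = 0.3). In Thrb-KO the means were 55.4 ± 4.60 and 54.8 ± 4.43 CPM (n = 5 each). *Cry2* shares 23417 bp with *D930015M05Rik* on the other strand. No shift of *Cry2* was detectable in either genotype.

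*Per1*, an immediate target of several signalling pathways as well as of the clock, varied most within groups, from 80.4 to 176 CPM in hypothyroid WT and from 68.9 to 140 CPM in hypothyroid Thrb-KO. Its T3 differences of 0.01 in WT (interval -0.47 to 0.49) and 0.12 in Thrb-KO were far inside that spread (limma adjusted p = 0.99 and 1.0). *Per2* was lower with T3 in both genotypes without passing, from 28.6 ± 4.31 to 23.1 ± 5.96 CPM in WT (n = 4 each) and from 34.03 ± 7.05 to 28.8 ± 4.81 CPM in Thrb-KO (n = 5 each), at differences of -0.33 and -0.22 (limma adjusted p = 0.29 and 1.0).

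*Per3*, the third Period gene, was not called in WT with or without any library, but its size and adjusted p turned on hyperthyroid replicate 3. It was at 98.4, 96.7, 97.2 and 87.0 CPM in hypothyroid WT and at 137, 139, 72.8 and 135 CPM in hyperthyroid WT, where 3 libraries stood above and replicate 3 below the whole hypothyroid group. The difference was 0.30 (interval -0.01 to 0.62, limma adjusted p = 0.19), and without that library it was 0.53 (limma adjusted p = 3e-05), still short of a call only in that its fold was under 1.5. Replicate 3 was also the lowest hyperthyroid WT library for *Clock*, *Per1*, *Per2*, *Cry1*, *Cry2*, *Dbp* and *Tef*. It was the library with the highest hormone-cell total and the lowest TMM factor, 0.832, and TMM scaling of all libraries gave a *Per3* difference of 0.40 (limma adjusted p = 0.021), likewise short of 1.5-fold. In Thrb-KO, *Per3* was at 118, 119, 131, 109 and 106 CPM without T3 and at 115, 116, 114, 106 and 117 CPM with it, a difference of -0.03 (limma adjusted p = 1.0). Hypothyroid Thrb-KO libraries were all above hypothyroid WT, by 0.29 (limma adjusted p = 0.29), so that the separation did not pass the test across genes, though it did without hyperthyroid WT replicate 3 in the fit (limma adjusted p = 0.0051) at the same size.

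Counted by separation alone, the hormone states did not overlap for 3 of the 10 genes in WT, *Arntl*, *Dbp* and *Nfil3*, against 17.4% of all genes, and for 1 in Thrb-KO, *Dbp*, against 5.58%. Between hypothyroid genotypes 2 did not overlap, *Per3* and *Nfil3*, against 14.3%.

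The wider clock pathway held 24 more genes, of which 23 were tested (*Arntl2* was too low). In WT, 4 of the 23 were called with T3, *Bhlhe40* and *Csnk1e* higher and *Rorb* and *Tsku* lower, against 9.46% of all genes called, 3.87% higher and 5.59% lower, and the median over the 23 was -0.04, against -0.04 over all genes. In Thrb-KO none was called by limma, edgeR or DESeq2, and 5 had an unadjusted p below 0.05 by limma. *Bhlhe40* (DEC1), a repressor at E-boxes, ran from 31.9 to 42.9 CPM in hypothyroid WT and from 45.7 to 68.5 CPM in hyperthyroid WT, a rise of 0.67 (SE 0.114, limma adjusted p = 0.0003). In Thrb-KO it went from 40.6 ± 2.36 to 35.5 ± 2.46 CPM (n = 5 each, limma adjusted p = 0.76), and the responses differed by 0.86 (limma adjusted p = 0.0018). *Bhlhe40* thus ended lower in hyperthyroid Thrb-KO than in hyperthyroid WT, at -0.74 (limma adjusted p = 0.00012). Within replicates 3 to 5 the rise of *Bhlhe40* in WT was 0.44 (limma adjusted p = 0.081) and the difference in response 0.58 (limma adjusted p = 0.17), against 0.89 and 1.17 within replicates 1 and 2, where both were called.

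*Csnk1e*, a kinase that marks PER proteins for degradation, rose from 16.7 ± 0.56 to 26.4 ± 3.94 CPM in WT (n = 4 each), by 0.62 (limma adjusted p = 0.00024), and differed by 0.17 in Thrb-KO (limma adjusted p = 0.81). The difference between those responses, 0.45, did not pass (limma adjusted p = 0.071). The *Csnk1e* rise was short of 1.5-fold within replicates 1 and 2 (0.54) and without hyperthyroid WT replicate 4 (0.53). *Rorb*, an orphan nuclear receptor of the loop that acts on *Arntl*, fell from 89.5 ± 8.46 to 52.4 ± 2.79 CPM in WT (n = 4 each), a log2 difference of -0.76 (SE 0.091, limma adjusted p = 6.1e-06). In Thrb-KO it stayed at 68.0 ± 5.15 and 68.5 ± 6.66 CPM (n = 5 each), between the WT groups, and the responses differed by -0.77 (limma adjusted p = 0.00066). *Tsku*, a secreted protein with a rhythmic liver transcript, fell from 22.9 ± 3.01 to 13.8 ± 1.82 CPM in WT (n = 4 each), at -0.69 (limma adjusted p = 0.00011), and its response also differed between genotypes (-0.61, limma adjusted p = 0.016), a call lost in 8 of 30 alternative fits, among them TMM scaling, DESeq2, replicates 1 and 2 alone (-0.47, limma adjusted p = 0.095) and 5 of the 18 without 1 library. The calls for *Rorb* changed in none of the 30.

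Of the Rev-erb genes, whose products repress *Arntl*, *Nr1d1* was at 196 CPM in hypothyroid and 138 CPM in hyperthyroid WT, a difference of -0.52 (limma adjusted p = 0.012). It was 1 of 3 pathway genes, with *Fbxw11* and *Por*, that passed the p limit and not the fold limit in WT, and these were named after their values were seen. Within replicates 3 to 5 *Nr1d1* was called, at -0.83, and within replicates 1 and 2 it was -0.20 (limma adjusted p = 0.074). *Nr1d2* differed by 0.26 in WT with limma adjusted p = 0.53. Between hyperthyroid genotypes 3 of the 23 were called, against 4.86% of all genes: *Usp2*, a deubiquitinase with a clock-driven transcript, and *Wee1*, a kinase that holds cells before mitosis, were higher in Thrb-KO by 0.60 and 0.68 (limma adjusted p = 6.5e-05 and 0.00044), and *Bhlhe40* was lower. The *Usp2* call was lost with TMM scaling, edgeR and DESeq2 and in 3 of the 18 fits without 1 library, down to 0.51, while those for *Wee1* and *Bhlhe40* held in all 30 alternatives. Between hypothyroid genotypes none of the 23 was called by limma, edgeR or DESeq2, though 8 had an unadjusted p below 0.05 by limma. By limma 4 of the 23 (*Hlf*, *Rorb*, *Usp2* and *Wee1*) had an adjusted p below 0.05 short of 1.5-fold. Over all genes, 901 of 13145 were below that adjusted p at any fold.

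**Figure D3:**
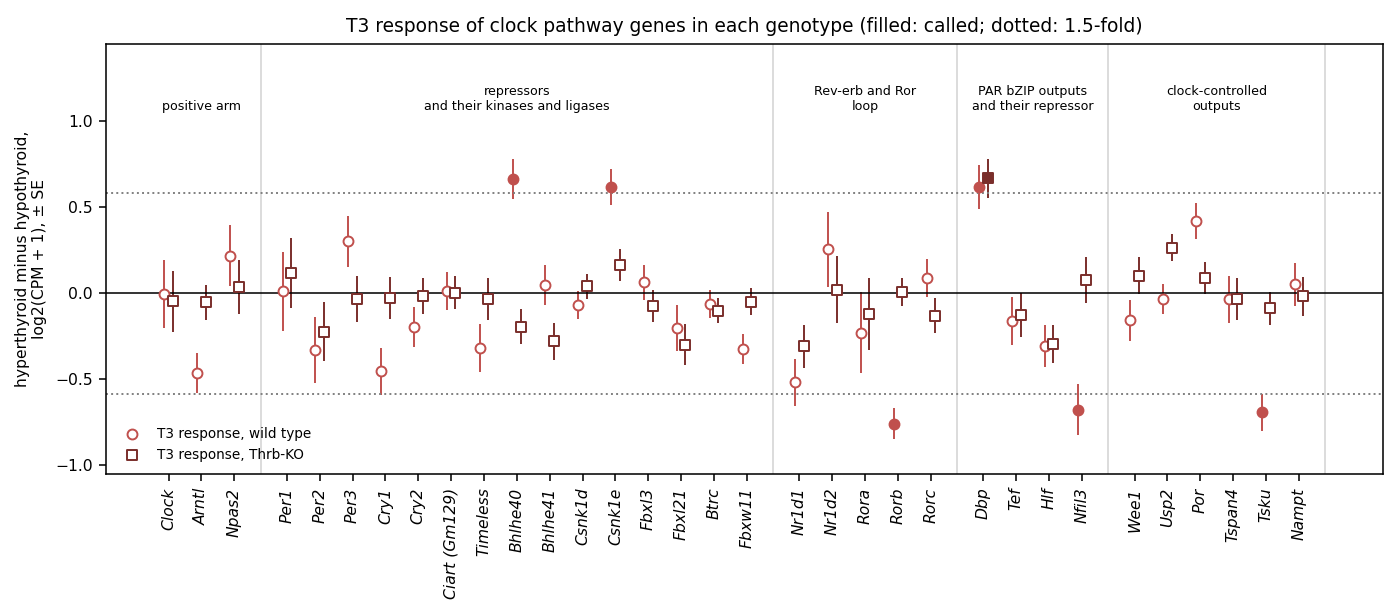
Log2 difference with T3 (± SE, limma) of the 33 tested clock pathway genes in WT and in Thrb-KO, grouped by role, with filled symbols for called differences and dotted lines at 1.5-fold. *Bhlhe40*, *Csnk1e*, *Rorb*, *Tsku* and *Nfil3* lie beyond the limits in WT alone, and *Dbp* lies beyond them in both genotypes.

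Since glucocorticoids act on *Per1* and on other clock genes, 8 genes known to answer to them were read alongside. In WT, 3 of the 8 were called with T3, against 9.46% of all genes: *Klf9* rose by 0.88 and *Sgk1* by 0.72, and *Fkbp5*, a chaperone partner of the glucocorticoid receptor, went from 134 ± 35.3 to 78.6 ± 7.03 CPM (n = 4 each, -0.72, limma adjusted p = 0.0026). In Thrb-KO *Klf9*, which also answers to thyroid hormone, was called alone, at 0.67 (limma adjusted p = 0.0034). In single library sets *Sgk1* was lost in WT in replicates 3 to 5 (0.68, limma adjusted p = 0.057), *Fkbp5* in replicates 1 and 2 (-0.42, short of 1.5-fold) and *Klf9* in Thrb-KO in replicates 3 to 5 (0.67, limma adjusted p = 0.07). *Zbtb16*, not called in the reported fit, was called lower with T3 in replicates 3 to 5 in both genotypes. It was also called higher in Thrb-KO than in WT in single sets. The *Sgk1* difference in response, 0.73, was not called, but 8 of 30 alternative fits called it, edgeR and DESeq2 among them. For *Fkbp5* it was called in replicates 3 to 5 alone (-0.67, limma adjusted p = 0.033). The list thus moved in both directions in WT, with a median of 0.01. Between hypothyroid genotypes, where *Nfil3* differed, none of the 8 was called by limma, edgeR or DESeq2, and 1 had an unadjusted p below 0.05 by limma. Between hyperthyroid genotypes *Fkbp5* was higher in Thrb-KO by 0.82 and *Sgk1* lower, at -0.87 (limma adjusted p = 0.001 for both). Of 8 immediate early genes, which rise within minutes of stimulation or of tissue handling, none was called in the reported limma fit or by edgeR. This held in all 5 comparisons, while DESeq2 called *Egr2* between hypothyroid genotypes. At an unadjusted p below 0.05 limma gave none in the T3 comparisons and 2 (*Egr2* and *Nr4a1*) between genotypes in each hormone state. *Nr4a1* was at 241 ± 68.4 CPM in hypothyroid WT (n = 4) and 109 ± 90.4 CPM in hypothyroid Thrb-KO (n = 5), at -1.42. That difference was called with the library set as a block and in 2 of 18 fits without 1 library. Within replicates 1 and 2 alone, *Fosb*, *Egr2* and *Nr4a1* each had called differences. The part of either list in the clock gene differences was not tested.

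The genes whose levels ran most like those of the called members were taken by Pearson correlation over the 18 libraries after centring each library set. For *Dbp* these were *Adck1*, *Tcof1* and *Celf6* at r = 0.919, 0.911 and 0.903, and the T3 differences were 0.75, 0.37 and 0.83 in WT and 0.68, 0.33 and 0.48 in Thrb-KO. For *Nfil3* these were *Cdr2*, *Mest* and *Bace2* at r = 0.958, 0.956 and 0.953. *Mest* and *Bace2* were both lower in hypothyroid Thrb-KO than in hypothyroid WT by over 2-fold, at -1.19 and -1.18, and their T3 differences were -0.76 and -0.78 in WT and 0.05 and 0.01 in Thrb-KO. *Cdr2* differed less, at -0.425 between the hypothyroid genotypes, -0.27 with T3 in WT and 0.02 in Thrb-KO, each short of 1.5-fold. These correlations were the highest among tested genes outside the clock pathway lists and share libraries with the comparisons, so they describe the pattern and test nothing.

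Chromatin at the clock genes was read from 3 deposited lists on the mm9 build. The first holds 8051 TRβ-HAB peaks from pituitary and the second 5164 from cerebral cortex, each called on 3 merged libraries of untreated mice with both the tagged *Thrb* allele and the biotin ligase BirA against 3 merged libraries titled BirA. These controls carry the ligase alone by the study's methods, although their genotype label names the tagged mice. With libraries merged, no replicate spread is given. The third holds 1776 open chromatin sites (ATAC-seq) that differed between hyperthyroid and hypothyroid mice, treated as the RNA mice were. Its nuclei were tagged through Cre expressed from the *Thrb* b2 promoter, and no direction of change is given. A peak was placed at a gene when it lay in the gene body or within 20 kb of it.

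TRβ-HAB peaks in pituitary were found at 9 of the 10 clock genes, all but *Cry1*, where 41.3% of 12898 tested genes with a position had one. In cortex 7 of the 10 had one, all but *Cry1*, *Cry2* and *Nfil3*, against 34.9% of genes. A T3-regulated open site lay near 1, *Tef*, against 7.79%. The median body of the 10 was 35706 bp against 25007 bp over all genes, with 6 above that median and 4 (*Dbp*, *Nfil3*, *Per1* and *Tef*) below it, and the part of gene length in these counts was not tested. Within 1 kb the pituitary count was 7 of 10, against 26.65% of genes. The 18 pituitary peaks at clock genes held 13 to 73 reads, with a median of 21.5 against 18 over the list, so most rested on few reads.

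**Figure D4:**
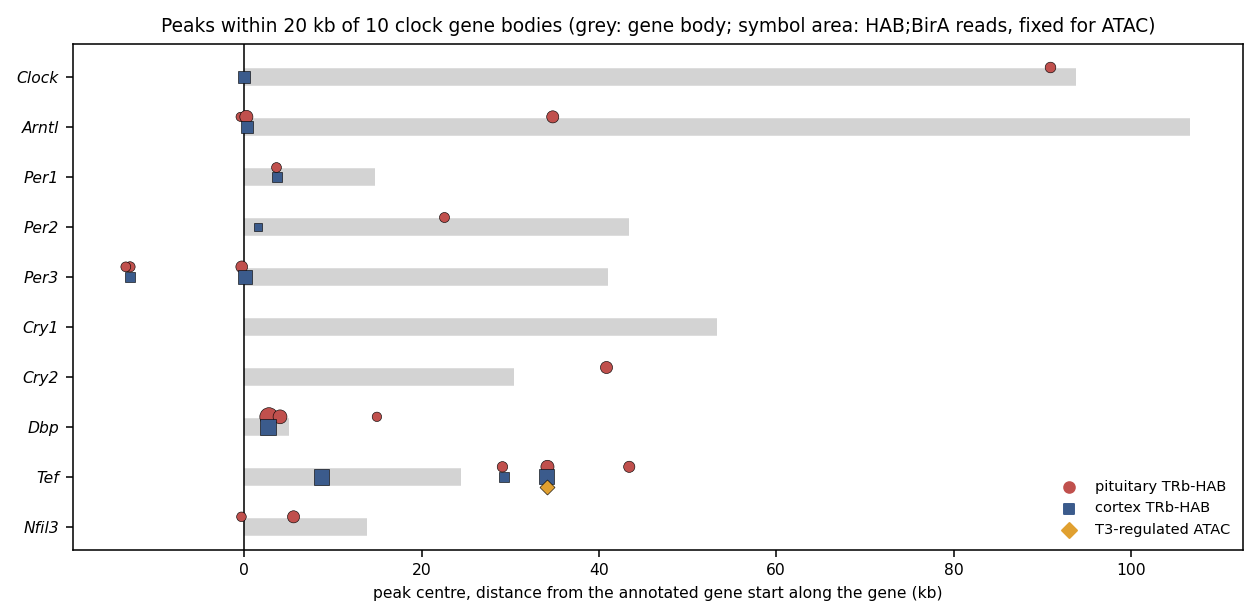
Peaks near the 10 clock genes, plotted by distance from the annotated start site along the direction of transcription (kb), with the gene body as a grey bar and symbols for the centres of pituitary TRβ-HAB, cortex TRβ-HAB and T3-regulated ATAC peaks, whose area grows with the tagged reads except for ATAC. Pituitary TRβ-HAB peaks are present at 9 of the 10 genes and absent within 20 kb of *Cry1*, and the 1 ATAC peak lies downstream of *Tef*.

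At *Dbp* (chr7:52960458-52965525, plus strand) there were 3 pituitary peaks. The strongest, at chr7:52963051-52963450 in an intron of the coding transcripts, held 73 tagged against 10 control reads and ranked 891 of 8051 by false discovery rate. A cortex peak with 60 against 5 reads covered the same place and ranked 78 of 5164. This region holds a direct repeat with 10 of 12 hexamer bases matching, at chr7:52963218-52963233 on the minus strand, GGGTCAgccgAGGACA, with the hexamers in capitals. A further peak at chr7:52964101-52964900 (39 against 6 reads) lay in the part shared with *Sphk2*, and a weak one (14 against 2) inside *Rpl18*.

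At *Nfil3* (chr13:53062578-53076442, minus strand) the intronic peak printed above held 28 tagged against 1 control read, ranking 1073 of 8051, with its repeat GGGTCAgaagAGGGCA at chr13:53070843-53070858. A smaller peak of 15 against 1 reads lay 209 bp upstream of the gene. Cortex had no peak at *Nfil3*, and the nearest T3-regulated open site was 34501 bp away. The gene called in WT alone and the gene called in both genotypes therefore both had pituitary TRβ-HAB peaks with a repeat of this layout. At the same mismatch limit 20.94% of all pituitary peaks held such a repeat, as did one at *Tef*, which was not called.

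*Tef* (chr15:81632851-81657291, plus strand), which was not called in any comparison, carried the densest set. At chr15:81666851-81667250, 9560 bp past its end, a pituitary peak of 34 against 1 reads (rank 695), a cortex peak of 46 against 1 (rank 33 of 5164) and the T3-regulated open site (authors' adjusted p = 0.0125, rank 1310 of 1776) overlapped. *Gm8444*, 6590 bp from the open site, was nearer to it than *Tef*. A peak 4560 bp past the end (19 against 1 reads) held the repeat AGGTACaggcAGGTCA at chr15:81661881-81661896 on the minus strand, and a cortex peak over a coding start held AGGTTAgcggAGGGCA at chr15:81641195-81641210 on the same strand.

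At the start sites, TRβ-HAB peaks lay at *Arntl*, *Per1* and *Per3*. Those at *Arntl* were over the start (34 against 7 reads in pituitary and 33 against 2 in cortex). At *Per1* (16 against 1 and 15 against 1) they lay at the start of an internal coding transcript. The bases of the pituitary *Per1* peak printed above all come before that start. At *Per3* the pituitary peak (26 against 2, printed above) lay 127 bp upstream, and the cortex peak held 42 against 11. *Clock* had a cortex peak over its start (29 against 7) and a pituitary peak in an untranslated exon 90842 bp from the start (20 against 2). *Per2* had weak intronic peaks, and the *Cry2* peak lay 10303 bp past its end within *Mapk8ip1*. The nearest pituitary peak to *Cry1* was 57302 bp away. None of these genes was called with T3 in either genotype, so a peak was found at genes with and without a detected response.

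The search for AGGTCA, 4 bases, AGGTCA on both strands with at most 2 mismatches found a repeat in 3 of the 18 pituitary peaks at clock genes (16.67%) against 20.94% of the whole list, and in 2 of the 10 cortex peaks (20.0%) against 9.3%. In RefSeq promoters (GRCm38.p6, 250 bases before to 50 after the start), 14 promoters of 9 members were matched and *Per2* had none. The E-box CACGTG, which reads the same on both strands, was in 4 of the 14, at *Cry1*, *Per1* and *Tef* (28.57%), against 7.15% of 32851 promoters. The D-box TTATGTAA, searched on both strands, was in 1 of the 14, that of *Per3*, against 0.94%, and TTACGTAA was in none, against 0.12%. Among the other pathway genes 19 of 23 had a pituitary TRβ-HAB peak within 20 kb against 41.3% of all genes, and 10 a cortex peak, against 34.9%, including *Bhlhe40* (44 against 3 reads in pituitary).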

How the data were processed

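The RNA-seq table held CPM per RefSeq transcript on mm9, made by the authors from single-end reads (the study's methods name BBMap, the submitters' notes STAR) and deposited without length scaling. Whole read counts were recovered from the deposited CPM (100% of values whole, tolerance 0.05 read). Reads in peaks (counts), fold ratios and false discovery rates (p-values) are as deposited, from SICER on merged libraries per the study's methods, and adjusted p-values of the ATAC list are the authors' own. All untreated ChAP controls, titled BirA, carry the genotype label of the tagged mice and were grouped by title.

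Libraries were grouped by the labels. The transcript of highest mean CPM stood for a gene. Genes above 1 CPM in all 18 libraries were fitted with limma 3.58.1 (R 4.3.3) on log2(CPM + 1) in 1 model of 4 groups with a mean-variance trend, and p-values were adjusted by Benjamini-Hochberg over 13145 genes. edgeR 4.0.16 and DESeq2 1.42.0 on recovered reads were alternatives. The steps were tested on simulated data. Genes named were the members, the called genes of the pathway and control lists, and the 3 most alike per called member. Members and lists were chosen with earlier results of these data known. Replicate numbers were shared by the groups, and same-numbered libraries deviated together (r 0.13 to 0.82 over 25 pairs, median 0.53), as did other numbers of the same set (median 0.52). The pools are labelled as separate samples, and p-values measure the spread between them.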

Additional observations from a re-analysis of the deposited data

Results flagged for a closer look

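Over 40 combinations of gene and group, 4 held a library far from the rest by Dixon's gap ratio (limits 0.829 for 4 libraries and 0.71 for 5), where chance gives about 1 in 20. Of these, 3 were *Per3*: hypothyroid WT replicate 4 was lowest at 87.0 CPM (ratio 0.847), hyperthyroid WT replicate 3 lowest at 72.8 CPM (ratio 0.944) and hyperthyroid Thrb-KO replicate 4 lowest at 106 CPM (ratio 0.753). The other was *Cry2*, highest in hyperthyroid Thrb-KO replicate 3 at 62.4 CPM (ratio 0.761). A difference between genotypes in the response to T3 was found for *Nfil3*, at -0.75 on the log2 scale (WT minus Thrb-KO, limma adjusted p = 0.033), with every hyperthyroid WT library below every hypothyroid WT library and the Thrb-KO groups overlapping.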

How the results depend on the processing

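The count of the 10 clock genes called with T3 in WT was 2 in the reported fit. After TMM scaling of the CPM it was 1 (*Nfil3* was lost), and with no fold limit it was 4. Without single libraries it ran from 1 to 2. It was 3 in replicates 1 and 2 alone (*Arntl*, *Dbp* and *Nfil3*) and 2 in replicates 3 to 5 alone (*Cry1* and *Nfil3*). In Thrb-KO the count of 1 became 0 in replicates 1 and 2 alone and was 1 to 1 without single libraries. The count of 1 for a difference in response became 0 after TMM scaling and 0 with edgeR, and ran from 0 to 1 without single libraries. Between hypothyroid genotypes it was 1 in every alternative, and between hyperthyroid genotypes the count of 0 became 1 in replicates 3 to 5 alone and 1 with no fold limit (*Cry1* in both), and ran from 0 to 1 without single libraries (1 without hyperthyroid WT replicate 2). With the replicate number as a block the counts were 2, 1, 1, 1 and 0 in these 5 comparisons, and the replicate block changed no call among the 10 genes. Members with a T3-regulated open site numbered 2 within 50 kb, 0 within 1 kb and 0 for the better-ranked portion of the list, against 1 within 20 kb. Repeats with at most 1 mismatch were in 0 of the pituitary and 0 of the cortex peaks, and with at most 3 mismatches in 11 and 4. The cause of these shifts was not tested, beyond the fold and mismatch limits, which act by construction. Pseudocounts of 0.1 and 0.5, other filters and summed transcripts changed no member's call. No direction of a called gene reversed. Depth did not limit the members in RNA, whereas peaks of 13 to 30 reads are thinly supported.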

Other observations

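After removing the mean of each group within each library set, the residuals of the 10 clock genes were compared between genes. Correlations among other genes were not computed, so the values are not shown to be particular to clock genes. Over the 45 pairs of genes and 18 libraries, the correlation of residuals had a median of 0.29, was positive for 34 pairs and exceeded 0.5 for 16. It was highest for *Per3* with *Tef* (0.91), *Per3* with *Cry2* (0.88) and *Dbp* with *Tef* (0.88), and lowest for *Clock* with *Dbp* (-0.33). *Dbp* and *Nfil3*, the pair that responded to T3 in WT, were at 0.10. In hyperthyroid WT, replicate 3 was far below replicate 4 for *Per3* (72.8 and 135 CPM), *Tef* (72.95 and 134.85 CPM) and *Cry2* (38.1 and 56.0 CPM). The part of replicate 3 in the correlations was not tested. All pairs share libraries, depth and scaling, so the correlations are descriptions with no test. The hour of collection within the window of 14 to 18 h is not given for single libraries, and its part in this spread was not tested.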
